A study of Mus musculus with 6 samples.

Results

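The genes described here encode 47 enzymes that take amino acids apart, of 55450 genes counted in 6 bulk RNA-Seq libraries of mouse hepatocytes. They were chosen by gene name from a list of amino acid catabolism enzymes, without use of measured values in the rule. Earlier results of these data were known when the list was chosen. All 47 were found and had enough counts to be tested. The libraries came from primary hepatocytes of male C57BL/6 mice (C57BL/6J in the study's methods) kept on a normal diet, 3 from undamaged liver (0 h) and 3 from liver collected 48 h after partial hepatectomy (PHx), surgery that removes most of the liver mass and makes the remaining hepatocytes divide. The labels give the mice's age as 10 to 12 weeks, and the study's methods give a slightly younger age. Hepatocytes were isolated by collagenase perfusion in both groups, each library was a separate preparation, and no group carried a transgene or a drug. The 0 h group was not a sham-operated group, so effects of the surgery and of regeneration cannot be told apart, and 48 h is the single later time point analysed here.

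Liver is the main site where surplus amino acids are broken down. Most pathways begin by removing the amino group, by transamination or by an oxidation or lyase step, and the carbon skeletons then enter gluconeogenesis, the citric acid cycle or ketone body synthesis. Several of the first enzymes, among them tyrosine aminotransferase, tryptophan dioxygenase and serine dehydratase, are textbook targets of glucocorticoids and glucagon in hepatocytes. Some of the same pathways feed other ends, since tryptophan yields NAD precursors, methionine yields the methyl donor S-adenosylmethionine, cysteine yields taurine and glycine and histidine feed one-carbon units to folate.

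At 48 h after PHx, 28 of the 47 enzymes were lower than at 0 h, 3 were higher and 16 did not pass the threshold (edgeR quasi-likelihood test, Benjamini-Hochberg adjusted p under 0.05 over the 17037 genes tested). Lower enzymes were thus 59.6% of the members, beside 19.3% of all genes tested, and higher enzymes 6.38%, beside 21.4%. In either direction, 66.0% of the members and 40.7% of all genes tested passed. The genes tested include ones with as few as 10 counts in 3 libraries, while the lowest count of any member in a library was 134. A background of genes at like levels was not drawn up. The median log2 fold change of the members was -0.58, with a range from -2.87 for Csad to 1.74 for Acmsd, and the median over all genes tested was -0.0033. A change of at least 2-fold was called for 13 members that were lower, beside 7.94% of all genes, and for 1 that was higher, beside 9.69% of all genes. The 3 libraries of one time point all lay above the 3 of the other for 31 members, beside 52.7% of all genes.

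**Figure D1:**
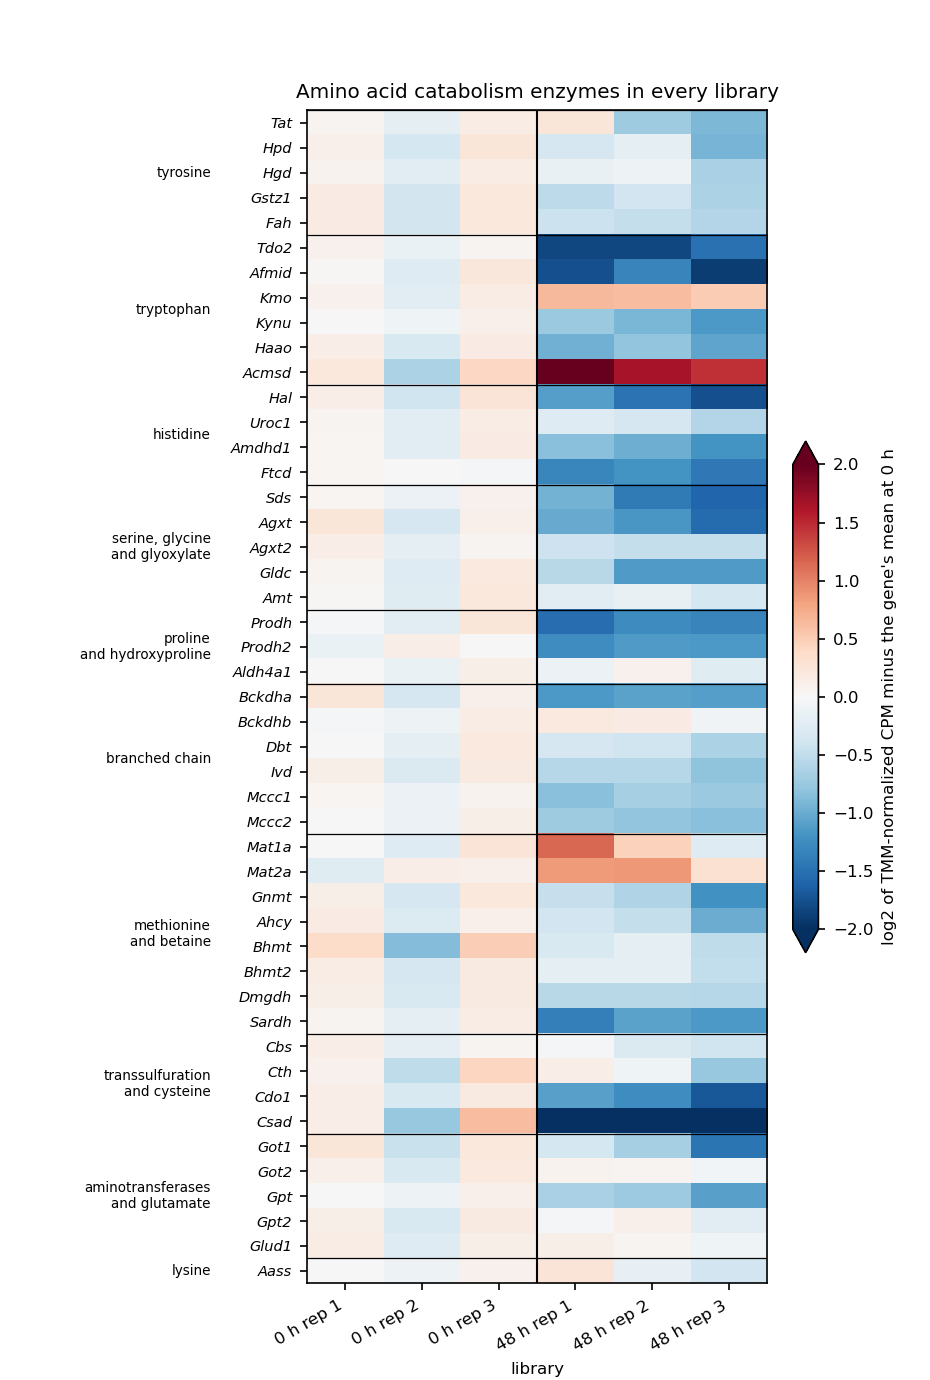
Heat map of the 47 enzymes (rows, grouped by pathway) in the 6 libraries (columns), coloured by log2 TMM-normalized CPM (counts scaled per 1000000) minus the gene's mean at 0 h, with colours cut at -2 and 2. Most rows turn blue in all 3 libraries at 48 h, while Kmo, Acmsd and Mat2a are red there, and the 0 h replicate 2 and 48 h replicate 3 columns are the bluest of their group in most rows.

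Levels below are CPM after TMM scaling, in the order of replicates 1, 2 and 3. The 0 h libraries held 31419443 to 36346220 gene counts and the 48 h libraries 31684152 to 33093006, so that 3 counts stood for 0.0839 to 0.102 CPM, far under the level of every member. Replicates of a time point correlated at 0.984 to 0.989 on log2 CPM over the genes tested, and libraries of different time points at 0.918 to 0.937. For these genes the libraries of a group were ordered unevenly. The 0 h replicate 2 held the lowest of the 3 values at 0 h for 44 of the 47 members, beside 40.1% of all genes tested, and the 48 h replicate 3 held the lowest at 48 h for 39 of the 47, beside 34.9% of all genes. The 48 h replicate 1 held the highest at 48 h for 29 of the 47, beside 35.1% of all genes. The 0 h replicate 2 also had the largest share of reads assigned to no annotated feature, which can include introns, 32.7%, beside 24.3% to 29.3% in the others. Without it 33 members were lower and 3 higher. Leaving out the 48 h replicate 3 gave 23 lower and 4 higher, and leaving out both gave 30 lower and 3 higher.

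The hepatocyte label was checked against markers of liver cell types. The 10 hepatocyte markers summed to 109215 to 129223 CPM at 0 h and 76997 to 92890 CPM at 48 h, and 3 of them (Alb, Apoa1 and Ttr) were lower and 1 (Fgb) higher. All 10 endothelial markers were lower, with sums of 236 to 373 CPM at 0 h and 165 to 184 CPM at 48 h. Of 11 Kupffer cell and macrophage markers 3 were higher (82.6 to 124 CPM at 0 h and 119 to 146 CPM at 48 h), and none was lower. Of 10 stellate and fibroblast markers 9 could be tested, 2 were higher and 1 lower (66.6 to 109 CPM at 0 h and 62.0 to 74.5 CPM at 48 h). Of 7 cholangiocyte markers 3 could be tested and 2 were higher, Muc1 (means of 0.228 and 0.986 CPM) and Spp1 (1.64 and 4.65 CPM, overlapping libraries). Their list's sums (9.38 to 21 and 17.3 to 27.0 CPM) were mostly Sox9 (means of 13.2 and 17.5 CPM), which did not pass. The 7 lymphocyte markers (2.66 to 3.8 and 2.64 to 3.86 CPM) and 7 neutrophil markers (0.0903 to 0.408 and 0.594 to 1.06 CPM) gave no call, only 1 of the former and none of the latter could be tested, and Ltf and Mpo of the neutrophil list were at 0 throughout. The part of these shifts in the results was not tested. In bulk libraries, fewer cells of a type and less RNA per cell cannot be told apart.

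All 6 enzymes of tryptophan breakdown (the kynurenine pathway) changed, in opposite directions along the pathway. The 4 that fell were Tdo2, Afmid, Kynu and Haao, and the 2 that rose were Kmo, in the middle of the pathway, and Acmsd, at its branch. Tdo2, tryptophan dioxygenase, opens the pathway and lies at chr3:81957090-81976202 on the minus strand (GRCm38). It had 770, 658 and 750 CPM at 0 h and 204, 204 and 257 CPM at 48 h, so that the highest library at 48 h was far under the lowest at 0 h. Its log2 fold change was -1.71 ± 0.15 (SE), a 3.27-fold fall (adjusted p = 1.01e-05).

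Afmid, the formamidase of the second step (chr11:117825924-117839908, plus strand), had 14.6, 12.0 and 16.7 CPM at 0 h and 4.22, 5.71 and 3.83 CPM at 48 h. All its libraries at 48 h were under all of those at 0 h, and it fell by 1.65 on the log2 scale (SE 0.19, adjusted p = 7.32e-05). Exons of another annotated gene on the same strand cover 44.3% of its exon bases, and that gene, Gm20708, had 0 counts in every library. Reads in shared bases can be set aside as ambiguous, a class that took 4.27% to 5.29% of each library. The level of Afmid may thus be understated, which was not tested. Kynu, kynureninase, and Haao, hydroxyanthranilate dioxygenase, had log2 fold changes of -0.93 (adjusted p = 0.000357) and -0.95 (adjusted p = 0.000670).

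Kmo, kynurenine monooxygenase, uses the same substrate as Kynu does in one of its reactions. It had 272, 219 and 286 CPM at 0 h and 402, 396 and 364 CPM at 48 h, with no overlap, and rose by 0.58 ± 0.14 (SE) on the log2 scale (adjusted p = 0.00636). Acmsd, the decarboxylase that steers the pathway away from quinolinate and NAD, showed the largest rise of the 47 enzymes. Its libraries held 32.5, 18 and 37.4 CPM at 0 h and 129, 87.8 and 76.9 CPM at 48 h. The lowest library at 48 h was above the highest at 0 h, and the log2 fold change was 1.74 ± 0.26 (SE), a 3.34-fold rise (adjusted p = 0.000468). The calls of all 6 tryptophan enzymes were unchanged in each of the 15 other analyses described in the closing section.

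**Figure D2:**
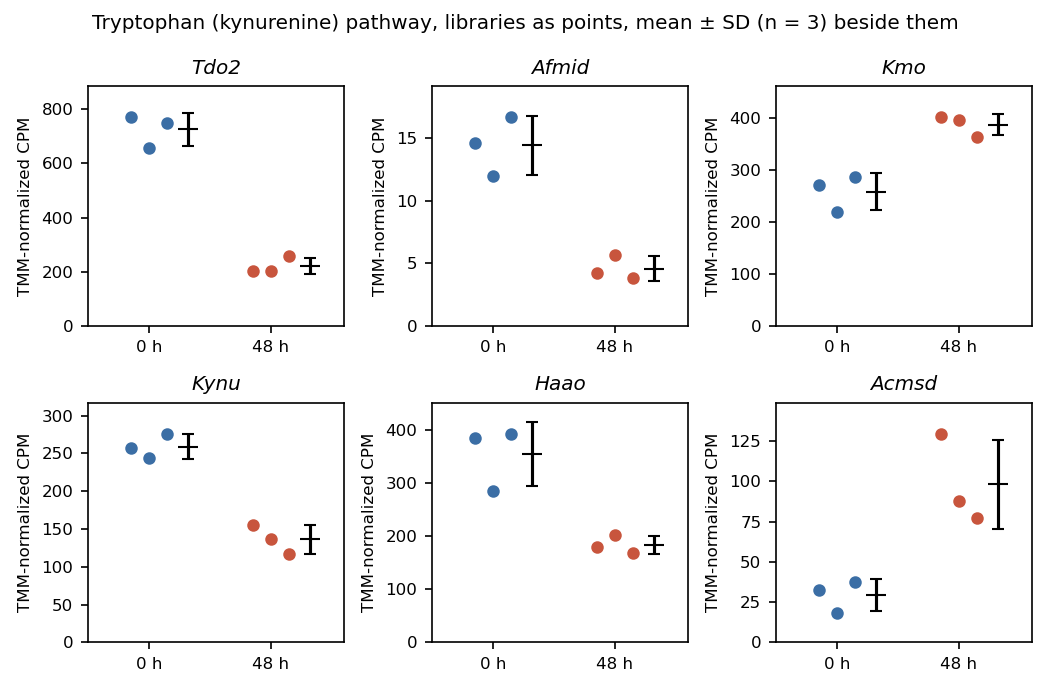
TMM-normalized CPM of the 6 kynurenine pathway enzymes in each library at 0 h (blue) and 48 h (red), with the mean and SD (n = 3) beside the points and axes that start at 0. Tdo2, Afmid, Kynu and Haao lie lower at 48 h and Kmo and Acmsd higher, with no overlap between time points in any panel.

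Of the 4 enzymes that turn histidine into glutamate, 3 were lower, each by at least 2-fold. Hal, histidine ammonia lyase, takes the first step (chr10:93488768-93519304, plus strand). It had 477, 327 and 520 CPM at 0 h and 203, 155 and 128 CPM at 48 h, with no overlap, and fell by 1.45 on the log2 scale (SE 0.21, adjusted p = 0.000357). Amdhd1, imidazolonepropionase, takes the third step, and its gene lies tail to tail with Hal at 4033 bases (chr10:93523338-93540033, minus strand). It had 146, 123 and 159 CPM at 0 h and 79.1, 72.1 and 61.7 CPM at 48 h, again without overlap, and its log2 fold change was -1.0 ± 0.14 (SE, adjusted p = 0.000238).

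Ftcd, which passes the last carbon of histidine to folate (chr10:76575648-76590338, plus strand), had 462, 447 and 434 CPM at 0 h and 181, 195 and 166 CPM at 48 h. All its libraries at 48 h lay under all of those at 0 h, and it fell by 1.31 on the log2 scale (SE 0.12, adjusted p = 1.81e-05). Uroc1, urocanase, the enzyme of the second step, did not pass the threshold, with 649 ± 83.5 CPM at 0 h and 495 ± 56.9 CPM at 48 h (SD, n = 3), a log2 fold change of -0.39 and an adjusted p of 0.0584. Its 3 libraries at 48 h nevertheless all lay under those at 0 h, and it passed in 7 of the 15 other analyses, DESeq2 and limma-voom among them.

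The stretches just before the start sites of 2 of these genes are printed. The 2 genes were the pair that fell furthest among 5 members considered for printing. Each of the 5 had annotated starts within 100 bases in RefSeq and GENCODE, a change of at least 2-fold and no annotated exon in the window. These conditions were not the whole rule, since some members were not considered. Cdo1, which fell by 1.33 on the log2 scale beside 1.31 for Ftcd, was not among the 5. The printed stretches are the 250 bases upstream of the start on the plus strand from RefSeq (GRCm38.p6), Hal at chr10:93488518-93488767 and Ftcd at chr10:76575398-76575647. Capitals mark matches, on either strand, to TATAAA (bound by the basal transcription machinery), CCAAT (bound by NF-Y), GTTAAT (one arm of the HNF1 site), CAAAGT (one arm of the HNF4 site), TGTTCT (one arm of the glucocorticoid receptor site), TGACGT (core of the CRE), TTGCNNAA (C/EBP) and TTTCCCGC (E2F).
Hal: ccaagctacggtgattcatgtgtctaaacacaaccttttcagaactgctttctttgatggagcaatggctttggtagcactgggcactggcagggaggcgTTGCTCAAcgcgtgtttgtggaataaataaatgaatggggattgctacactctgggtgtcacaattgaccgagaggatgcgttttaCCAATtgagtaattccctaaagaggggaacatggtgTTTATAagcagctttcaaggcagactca
Ftcd: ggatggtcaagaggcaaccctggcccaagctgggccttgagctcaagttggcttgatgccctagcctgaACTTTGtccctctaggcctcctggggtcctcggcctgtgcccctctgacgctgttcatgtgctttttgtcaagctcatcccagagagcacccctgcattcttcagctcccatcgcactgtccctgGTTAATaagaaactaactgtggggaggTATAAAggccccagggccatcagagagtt
In Hal the TATA match began at -28 from the start, on the opposite strand, with CCAAT at -64 and the C/EBP match at -150. In Ftcd the TATA match began at -29, the HNF1 arm at -56 and the HNF4 arm, on the opposite strand, at -181.

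Over the 40 members found in the RefSeq promoter table, 22 (55.0%) held CCAAT in this window, beside 34.5% of all 27025 promoters, and 7 (17.5%) held TATAAA, beside 13.0%. GTTAAT was in 4 (10.0%, beside 6.52%), CAAAGT in 6 (15%, beside 12.5%), TTGCNNAA in 4 (10.0%, beside 9.55%), TGTTCT in 3 (7.50%, beside 16.2%), TGACGT in 2 (5.0%, beside 6.56%) and TTTCCCGC in 0 (beside 0.929%). CCAAT was in 12 of the 23 lower members with a window and in 9 of the 14 that did not pass. These counts are descriptions of letters, and the motifs were chosen after the values of the genes had been seen.

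Of 5 enzymes of serine, glycine and glyoxylate, 4 were lower. Sds, serine dehydratase, which makes pyruvate from serine for gluconeogenesis (chr5:120476526-120483932, plus strand), had 120, 106 and 122 CPM at 0 h and 60.2, 43.3 and 38.7 CPM at 48 h. The time points were well apart, and it fell by 1.29 on the log2 scale (SE 0.16, adjusted p = 0.000132). Exons of genes on the other strand cover 29.6% of its exon bases. One of them, Gm15690, had 11.8 ± 1.03 CPM at 0 h (SD, n = 3) and itself fell by 2.09, and another, Plbd2, had 136 ± 2.74 CPM (SD, n = 3) and fell by 0.42. Whether the counting used strand is not given in the sources used here.

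Agxt, the peroxisomal aminotransferase that turns glyoxylate into glycine (chr1:93135240-93145421, plus strand), had 220, 147 and 198 CPM at 0 h and 92.8, 83.0 and 63.7 CPM at 48 h. It fell by 1.24 on the log2 scale (SE 0.18, adjusted p = 0.000357), without overlap. Agxt2, its mitochondrial relative, fell by 0.46 (adjusted p = 0.00736), and lost its call with scaling by library size alone (-0.26). Of the glycine cleavage system, Gldc, its decarboxylase, fell by 0.93 (adjusted p = 0.00243), while Amt, its aminomethyltransferase, had a log2 fold change of -0.25 that did not pass (adjusted p = 0.144). Amt was at -0.37 and passed without the 0 h replicate 2, and was at -0.14 without the 0 h replicate 3, where it did not. Whether Gldc and Amt differed from each other was not tested.

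In proline breakdown, both dehydrogenases fell and the shared later enzyme did not pass. Prodh, proline dehydrogenase (chr16:18060357-18090203, minus strand), had 136, 119 and 164 CPM at 0 h and 48.2, 57.8 and 55.2 CPM at 48 h. Prodh2, which acts on hydroxyproline (chr7:30493622-30513402, plus strand), had 110, 132 and 122 CPM at 0 h and 50.9, 55.4 and 54.8 CPM at 48 h. Neither overlapped between time points, and they fell by 1.38 (SE 0.14, adjusted p = 3.25e-05) and 1.17 (SE 0.11, adjusted p = 1.94e-05) on the log2 scale. Prodh2 was 1 of 2 members in which the 0 h replicate 2 was the highest library at 0 h. Aldh4a1, which completes both routes to glutamate or a glyoxylate precursor, had 237 ± 21.1 CPM at 0 h and 222 ± 25.5 CPM at 48 h (SD, n = 3; adjusted p = 0.606), and 32.5% of its exon bases lie under exons of the overlapping gene Gm21969, which had under 1 CPM. Reads in the shared bases may likewise have been set aside as ambiguous.

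Of 6 genes of branched chain amino acid breakdown, 5 were lower. The alpha subunit of the decarboxylase of the branched chain keto acid dehydrogenase, Bckdha (chr7:25629946-25658981, minus strand), had 63.5, 42.9 and 57.6 CPM at 0 h and 24.4, 25.7 and 25.0 CPM at 48 h. The 3 libraries at 48 h were close together and under every 0 h library, and the gene fell by 1.13 on the log2 scale (SE 0.14, adjusted p = 0.000140). Bckdhb, the beta subunit of the same enzyme, had 43.2, 41.4 and 49.2 CPM at 0 h and 51.1, 49.7 and 42.4 CPM at 48 h, overlapping values with a log2 fold change of 0.10 (SE 0.11, adjusted p = 0.530). It was at 0.04 to 0.18 when single libraries were left out, and at 0.30, passing as higher, with library size alone. The difference between the subunits was not tested. Exons of B3gnt8 on the other strand cover 61.7% of the exon bases of Bckdha, and B3gnt8 went from 7.89 ± 1.64 to 2.31 ± 0.297 CPM (SD, n = 3), a log2 fold change of -1.77.

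Dbt, the acyltransferase core of the same complex, fell by 0.46 on the log2 scale (adjusted p = 0.0152). The 3 genes of the leucine branch that follow it fell together. Ivd, isovaleryl-CoA dehydrogenase, fell by 0.66 (adjusted p = 0.00431), and the 2 subunits of methylcrotonyl-CoA carboxylase, Mccc1 and Mccc2, fell by 0.75 (adjusted p = 0.000367) and 0.78 (adjusted p = 0.000208). The call for Dbt was lost without the 0 h replicate 3 (log2 fold change -0.37), without the 48 h replicate 3 (-0.37) and with scaling by library size alone (-0.26).

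In the methionine cycle and betaine breakdown, 4 of 8 genes were lower, 1 was higher and 3 did not pass. Sardh, sarcosine dehydrogenase, which returns sarcosine to glycine (chr2:27188393-27248337, minus strand), fell furthest. It had 980, 829 and 1051 CPM at 0 h and 367, 450 and 427 CPM at 48 h, far from overlapping, and its log2 fold change was -1.20 ± 0.15 (SE, adjusted p = 0.000128). Dmgdh, dimethylglycine dehydrogenase, the step before it, fell by 0.58 (adjusted p = 0.00935). Gnmt, which makes sarcosine from glycine and uses up S-adenosylmethionine, fell by 0.74 (adjusted p = 0.0187), and Ahcy, which hydrolyses adenosylhomocysteine, fell by 0.60 (adjusted p = 0.0247). Gnmt did not pass without the 0 h replicate 1 or 3, nor did Ahcy without either of them or the 48 h replicate 3, with log2 fold changes of -0.69 and -0.65 for Gnmt and -0.53, -0.57 and -0.43 for Ahcy. Scaling by library size alone also ended the calls of Ahcy and Dmgdh.

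The 2 methionine adenosyltransferases are the adult liver form, Mat1a, and the form of other tissues and of growing or fetal liver, Mat2a. Mat2a had 62.6, 81.4 and 79.1 CPM at 0 h and 134, 135 and 90.8 CPM at 48 h, with no overlap, and rose by 0.69 ± 0.17 (SE) on the log2 scale (adjusted p = 0.00795). Exons of Particl on the other strand cover 11.3% of the exon bases of Mat2a, and Particl had 0.603 ± 0.145 CPM at 0 h and 0.563 ± 0.144 CPM at 48 h (SD, n = 3). Mat1a had 1748, 1455 and 2079 CPM at 0 h and 3855, 2400 and 1459 CPM at 48 h. Its libraries at 48 h spread more widely than those at 0 h and overlapped them, so that the log2 fold change of 0.55 ± 0.30 (SE) did not pass (adjusted p = 0.172). Without the 48 h replicate 3 it was 0.84 and passed, without the 48 h replicate 1 it was 0.13 and did not, and with no filter on low counts it was 0.53 and passed. Per kilobase of exon, Mat1a stood 30.5-fold above Mat2a at 0 h and 26.1-fold at 48 h.

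Bhmt, which remethylates homocysteine with betaine, had 1485, 633 and 1617 CPM at 0 h and 930, 1002 and 810 CPM at 48 h. The 0 h replicate 2 lay under all 3 libraries at 48 h, and 0 h replicates 1 and 3 lay above them. The log2 fold change was -0.45 ± 0.29 (SE, adjusted p = 0.247), and without the 0 h replicate 2 it was -0.77 and passed, while without the 0 h replicate 3 it was -0.22 and did not. Bhmt2, its neighbour on chromosome 13 at 17758 bases, uses methylmethionine as donor and had 216, 155 and 221 CPM at 0 h and 172, 171 and 139 CPM at 48 h. These overlapped, with a log2 fold change of -0.30 (adjusted p = 0.158), or -0.45, which passed, without the 0 h replicate 2, and -0.20, which did not, without the 48 h replicate 3. Bhmt2 and Dmgdh lie head to head with 130 bases between them, and of the pair only Dmgdh passed, while their difference was not tested.

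Csad showed the largest fall of the 47 enzymes. It decarboxylates cysteine sulfinate, the committed step to taurine, which hepatocytes join to bile acids (chr15:102176999-102204724, minus strand). It had 157, 84.3 and 218 CPM at 0 h and 18.5, 22.8 and 21.4 CPM at 48 h. The 0 h libraries spread over more than 2-fold and the 48 h libraries were close together, and the lowest at 0 h was still far above the highest at 48 h. The log2 fold change was -2.87 ± 0.29 (SE), a 7.33-fold fall (adjusted p = 3.14e-05), and it ranged from -3.17 to -2.54 when single libraries were left out.

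Cdo1, cysteine dioxygenase, makes the substrate of Csad. It had 758, 557 and 780 CPM at 0 h and 325, 292 and 213 CPM at 48 h, without overlap, and fell by 1.33 on the log2 scale (SE 0.19, adjusted p = 0.000327). The 2 enzymes that make cysteine from homocysteine did not pass. Cbs, cystathionine synthase, had 494 ± 56.0 CPM at 0 h and 419 ± 56.1 CPM at 48 h (SD, n = 3; log2 fold change -0.24, adjusted p = 0.229). Cth, the lyase that follows it, had 335 ± 104 and 283 ± 83.8 CPM (SD, n = 3; -0.24, adjusted p = 0.486), and its log2 fold change ranged from -0.47 to -0.02 when single libraries were left out.

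Tyrosine breakdown held some of the most abundant transcripts, and 2 of its 5 genes were lower. Tat, tyrosine aminotransferase, opens the pathway and had 2055, 1731 and 2187 CPM at 0 h and 2343, 1208 and 1060 CPM at 48 h. The 48 h replicate 1 was above every library at 0 h and the other 2 were under them all, so the log2 fold change of -0.37 ± 0.27 (SE) did not pass (adjusted p = 0.298). Without the 48 h replicate 1 it was -0.81 and passed, and without the 48 h replicate 2 or 3 it was -0.22 or -0.16 and did not. Hpd, hydroxyphenylpyruvate dioxygenase, and Hgd, homogentisate dioxygenase, had log2 fold changes of -0.47 (adjusted p = 0.107) and -0.28 (adjusted p = 0.214), and Hpd passed without the 0 h replicate 2 (-0.64) and with no filter on low counts (-0.49), but not without the 48 h replicate 3 (-0.28). Hgd ranged from -0.40 without the 0 h replicate 2 to -0.12 without the 48 h replicate 3.

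The last 2 enzymes of the pathway passed by small margins. Gstz1, maleylacetoacetate isomerase, and Fah, fumarylacetoacetate hydrolase, fell by 0.54 (adjusted p = 0.0259) and 0.52 (adjusted p = 0.0270) on the log2 scale. Gstz1 kept its call in 9 of the 15 other analyses and Fah in 10. Both lost it without the 0 h replicate 1 (log2 fold changes -0.47 and -0.46), the 0 h replicate 3 (-0.44 and -0.42) or the 48 h replicate 3 (-0.47 and -0.47). Gstz1 also lost it without the 48 h replicate 1 (-0.53) and Fah without the 48 h replicate 2 (-0.52). Exons of Gm6566 and Pomt2 on the other strand cover 12.2% of the exon bases of Gstz1. Pomt2 had 37.0 ± 1.85 CPM at 0 h and 32.1 ± 1.05 CPM at 48 h, and Gm6566 had 2.66 ± 0.227 and 1.72 ± 0.329 CPM (SD, n = 3).

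Among the general aminotransferases, the cytosolic enzymes were lower and the mitochondrial ones did not pass. Gpt, cytosolic alanine aminotransferase, had 253, 234 and 271 CPM at 0 h and 160, 153 and 119 CPM at 48 h, without overlap, and fell by 0.81 ± 0.14 (SE) on the log2 scale (adjusted p = 0.00102). Got1, cytosolic aspartate aminotransferase, had 398, 246 and 387 CPM at 0 h and 262, 211 and 121 CPM at 48 h. It fell by 0.79 ± 0.27 (SE; adjusted p = 0.0354), although the 0 h replicate 2 was under the 48 h replicate 1, and it lost the call when the 0 h replicate 1 (-0.68) or 3 (-0.71) or the 48 h replicate 2 (-0.83) or 3 (-0.53) was left out. Scaling by library size alone also ended its call.

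Got2, the mitochondrial aspartate enzyme, had 317, 241 and 340 CPM at 0 h and 310, 307 and 284 CPM at 48 h. Gpt2, the mitochondrial alanine enzyme, had 400, 297 and 418 CPM at 0 h and 357, 392 and 315 CPM at 48 h. Both overlapped between time points, with log2 fold changes of 0.00 ± 0.15 (SE, adjusted p = 0.986) and -0.07 ± 0.16 (SE, adjusted p = 0.766). Glud1, glutamate dehydrogenase, which releases the collected amino groups as ammonia, had 955, 718 and 937 CPM at 0 h and 934, 894 and 809 CPM at 48 h. Its libraries overlapped throughout (log2 fold change 0.01 ± 0.15, SE, adjusted p = 0.948). Aass, the lysine enzyme that opens the saccharopine route, had 357, 331 and 375 CPM at 0 h and 423, 317 and 270 CPM at 48 h, with the 48 h libraries on both sides of the 0 h ones (log2 fold change -0.07 ± 0.17, SE, adjusted p = 0.752). Scaling by library size alone, which moved the median of all genes to 0.20, turned Gpt2, Aass and Aldh4a1 positive. Got2 and Glud1 turned negative with TMM factors from protein-coding genes (-0.045 and -0.0351) and with no filter on low counts.

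**Figure D3:**
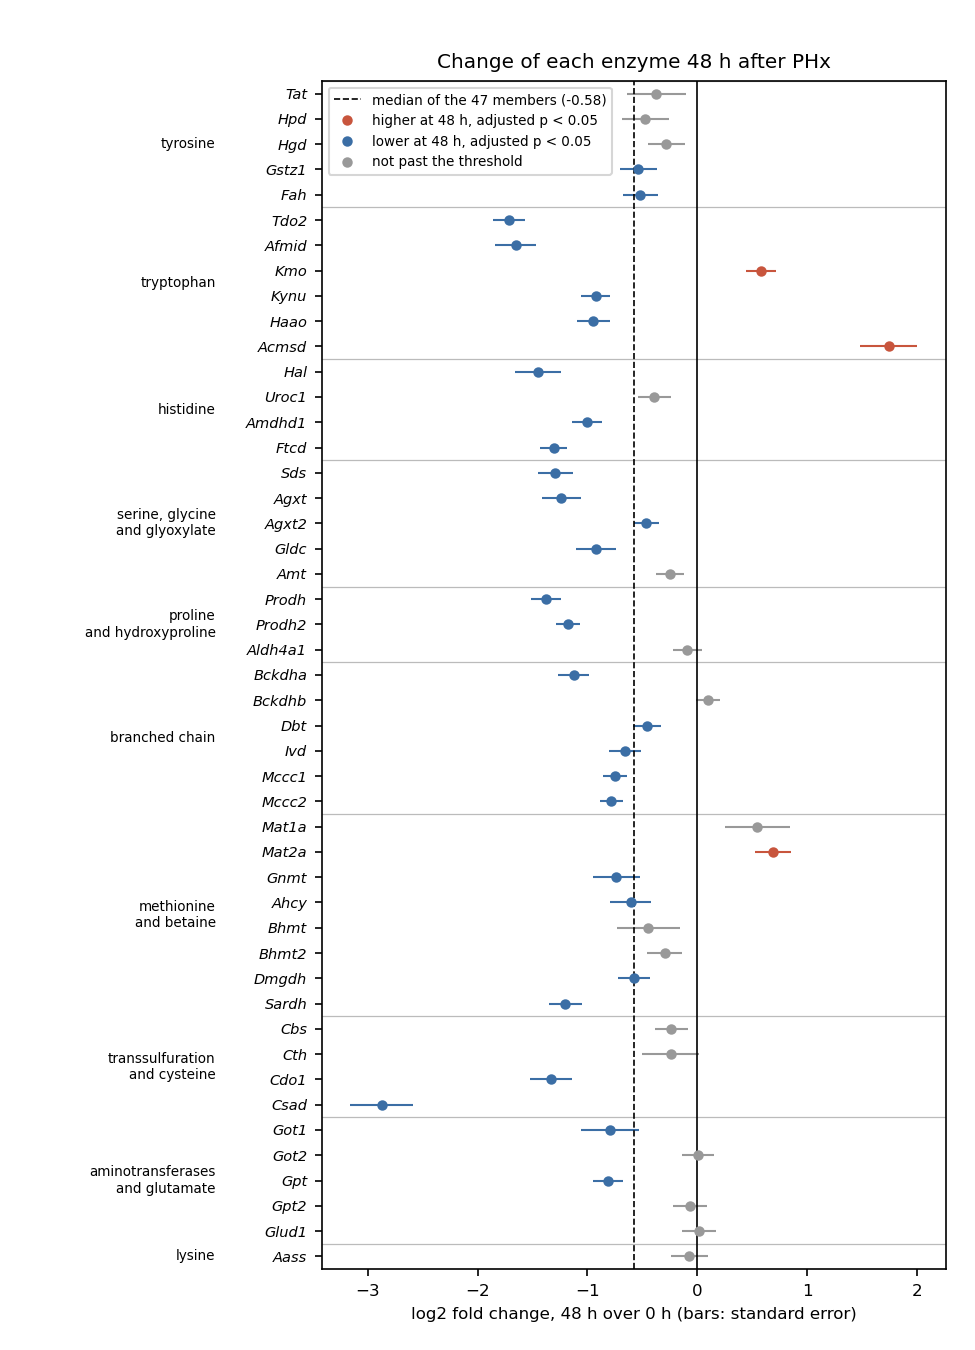
Log2 fold change of each of the 47 enzymes at 48 h over 0 h (points) with its standard error (bars), grouped by pathway and coloured by call, with the members' median of -0.58 as a dashed line. The 28 lower enzymes are spread over 9 of the 10 groups, and the 3 higher ones are Kmo, Acmsd and Mat2a.

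The 5 pairs of enzymes with like chemistry were compared as the ratio of their counts within each library, which does not depend on scaling between libraries (mean log2 ratio of counts with 0.5 added, exact two-sided permutation test, Benjamini-Hochberg over the 5 pairs). With 3 libraries against 3 the smallest p is 0.1, so no pair could pass. The Got1 to Got2 ratio was 0.33, 0.03 and 0.18 at 0 h and -0.24, -0.54 and -1.22 at 48 h, a mean difference of -0.85 (exact p = 0.1, adjusted p = 0.25). The Gpt to Gpt2 ratio was -0.66, -0.34 and -0.62 at 0 h and -1.15, -1.36 and -1.40 at 48 h, a mean difference of -0.76 (exact p = 0.1, adjusted p = 0.25). In both pairs all 3 libraries at 48 h lay under all 3 at 0 h. Per kilobase of exon, Got1 was 2.15-fold above Got2 at 0 h and 1.19-fold at 48 h, and Gpt was 1.32-fold above Gpt2 at 0 h and 0.776-fold its level at 48 h.

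The other 3 pairs overlapped between time points. Mat1a to Mat2a averaged 4.56 ± 0.35 at 0 h and 4.33 ± 0.45 at 48 h (SD of the log2 ratio, n = 3; exact p = 0.6). Bhmt to Bhmt2 averaged 2.56 ± 0.46 and 2.51 ± 0.06 (exact p = 1), and the sign of its difference turned without the 0 h replicate 1 or 3. Prodh to Prodh2 averaged 0.20 ± 0.30 and 0.00 ± 0.07 (exact p = 0.4). The adjusted p of these 3 was 0.75, 1 and 0.667.

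**Figure D4:**
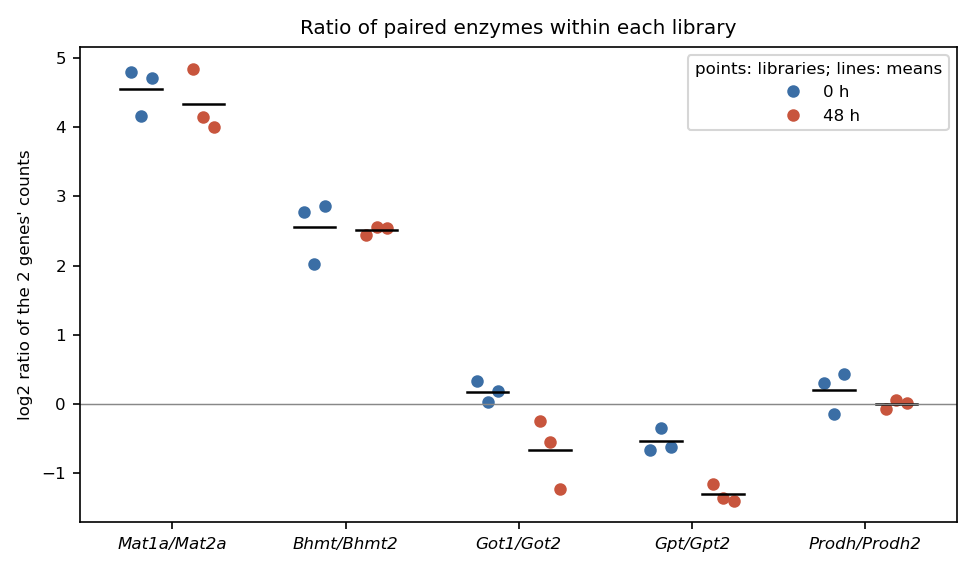
Log2 ratio of the counts of 2 related enzymes within each library (points) at 0 h (blue) and 48 h (red), with the mean of each time point as a line. The 48 h points of Got1/Got2 and Gpt/Gpt2 lie below their 0 h points, and those of the other 3 pairs overlap.

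Levels per length (CPM per kilobase of exon) put the enzymes in order of abundance. At 0 h Gnmt (884 ± 166, SD, n = 3), Tat (828 ± 97.6), Hpd (617 ± 127), Mat1a (508 ± 90.0) and Cdo1 (425 ± 74.8) led, and the SD ranges of neighbours in this order overlapped. Ahcy followed at 221 ± 34.8, and Acmsd (10.4 ± 3.56), Afmid (4.08 ± 0.660) and Mccc1 (2.54 ± 0.180) came last. The level of Afmid may be understated because of its overlap with Gm20708. At 48 h Mat1a led with 741 ± 348, followed by Tat (639 ± 292), Gnmt (530 ± 137) and Hpd (445 ± 111), again within their SDs. Kmo moved from place 30 to 14 and Acmsd from 45 to 29, while Tdo2 moved from 10 to 21 and Csad from 35 to 45.

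The summed level of the 47 enzymes came to 21156, 16179 and 22481 CPM at 0 h and 18023, 15118 and 11846 CPM at 48 h, overlapping values with means of 19939 ± 3323 and 14995 ± 3090 (SD, n = 3; exact permutation test, two-sided, p = 0.2). As a share of all gene counts, before TMM scaling, the sum was 1.86% ± 0.279 at 0 h and 1.6% ± 0.267 at 48 h (p = 0.3, same exact test). Tat, Mat1a, Hpd, Bhmt and Gnmt, the 5 with most counts at 0 h, made up 37.0% of the summed CPM at 0 h and 44.1% at 48 h, and only Gnmt of them was lower. These shares came from means, and their spread between libraries was not computed. The highest 48 h values of Mat1a (3855 CPM) and Tat (2343 CPM) were both in replicate 1.

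**Figure D5:**
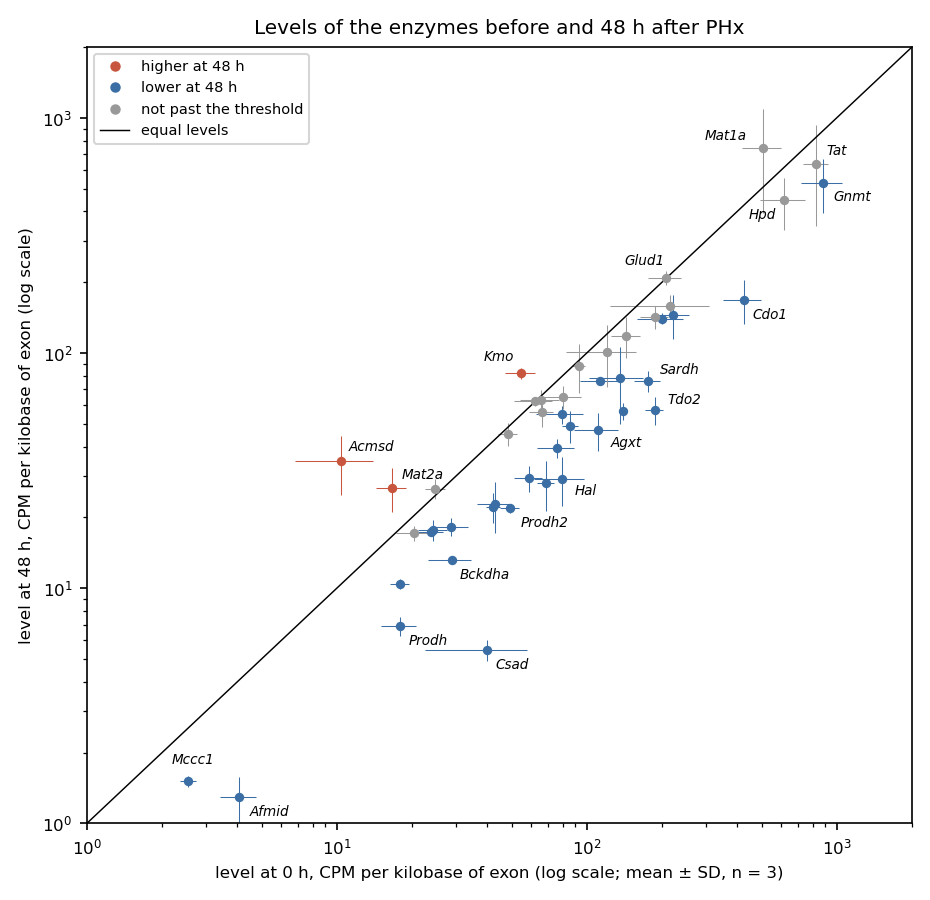
Mean level at 48 h against mean level at 0 h for the 47 enzymes, both in CPM per kilobase of exon on log axes, with SD bars (n = 3) and the line of equal levels. Gnmt, Tat, Hpd and Mat1a are the most abundant at both times, most lower enzymes (blue) lie under the line at middle levels, and Kmo, Acmsd and Mat2a (red) lie above it.

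A list of related genes, also chosen with earlier results of these data known, gave similar counts. Of 53 further enzymes and partners of these pathways, 47 had enough counts, and 29 were lower, 1 was higher and 17 did not pass, with a median log2 fold change of -0.58. The background is the same 19.3% lower and 21.4% higher of all genes. With scaling by library size alone the split was 24 lower and 5 higher. Oat, ornithine aminotransferase, which links ornithine to proline and glutamate, was the one that rose. It had 312, 269 and 336 CPM at 0 h and 653, 820 and 589 CPM at 48 h, with no overlap (log2 fold change 1.17 ± 0.16, SE, adjusted p = 0.000242).

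Genes of that list that fell by at least 2-fold included Ido2, a further tryptophan dioxygenase (-1.51), Aspg, an asparaginase (-1.48), Suox, sulfite oxidase (-1.23), Hykk, hydroxylysine kinase (-1.20) and Aldh6a1, the methylmalonate semialdehyde dehydrogenase of valine breakdown (-1.01). Their adjusted p values ran from 1.74e-05 for Aspg to 0.00287 for Hykk. Ido1 and Bcat1 had 0 counts in every library.

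Of 14 transcription factors and receptors known to control such enzymes in liver, 6 were lower, 1 was higher and 7 did not pass, beside the 19.3% lower and 21.4% higher of all genes. With scaling by library size alone 4 were lower and 2 higher. Nr0b2, a corepressor that bile acid signalling induces, fell by at least 2-fold, from 52.1, 55.0 and 51.6 CPM at 0 h to 11.0, 11.7 and 18.7 CPM at 48 h (log2 fold change -1.94 ± 0.18, SE, adjusted p = 2.07e-05). Named after their values were seen, the other 5 that fell were Cebpa (-0.97), the glucagon receptor gene Gcgr (-0.92), Klf15 (-0.85), a factor known for driving amino acid breakdown, Creb3l3 (-0.63) and Atf4 (-0.50), and Foxo1 rose (0.47, adjusted p = 0.0307). Atf4 kept its call in 10 and Creb3l3 in 14 of the 15 other analyses, and Foxo1 lost its call without the 0 h replicate 2 or 3 or the 48 h replicate 1 or 2, with a log2 fold change of 0.38 to 0.62 when single libraries were left out. The glucocorticoid receptor gene Nr3c1 (-0.26, adjusted p = 0.0746) and Hnf4a (0.23, adjusted p = 0.200) did not pass.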

How the data were processed

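The authors deposited, per library, raw counts of reads per gene with no normalization, in the layout of htseq-count. The submitters' processing notes name FastQC 0.11.5, Trim Galore 0.6.4, STAR 2.6, HTSeq 0.12.4, DESeq2 and the mm10 build, and the strand setting is not given in the sources used here. Gene names and exons came from GENCODE M21 (GRCm38).

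Reads assigned to no gene were left out. A gene was tested if 3 or more libraries held 10 or more of its counts, using edgeR 4.0.16 under R 4.3.3 (TMM factors of 0.914 to 0.950 at 0 h and 1.02 to 1.11 at 48 h, quasi-likelihood test, time point as the only term, Benjamini-Hochberg over 17037 genes, threshold 0.05), after a test of the script on simulated counts. The SE of a log2 fold change was taken as its absolute value over the root of its F. DESeq2 1.42.0 and limma 3.58.1 served as alternatives. The labels number the replicates, but same-numbered libraries did not deviate together (correlations of 0.0335, -0.0674 and -0.138), so no pairing was used. Replicates of a time point differed by more than sampling noise (mean chi-square per gene at least 26.2). P-values measure the spread between 3 preparations, and floors of 3 counts cover counting error only, since reads carried no molecular identifiers.

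The members, related genes, regulators and cell type markers were chosen with earlier results of these data known. Values of every library are given for members that passed with a log2 fold change of at least 1, for the most abundant member of a group with none, and for members of the 5 pairs. A few others are named after their values were seen, and a related gene and further promoters are not reported here.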

Additional observations from a re-analysis of the deposited data

How the results depend on the processing

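Across 15 other analyses (DESeq2, limma-voom, RLE factors, library size alone, TMM without mitochondrial genes or from protein-coding genes, 2 other filters, the replicate block and leaving out each library), the count of lower members ranged from 21 to 33, that of higher members from 3 to 4 and their median log2 fold change from -0.74 to -0.37, with 20 of the 28 lower and all 3 higher members called in each. Library size alone moved the median of all genes to 0.20 and gave 21 lower and 4 higher members, and Gstz1, Fah, Agxt2, Dbt, Ahcy, Dmgdh and Got1 lost their call. The replicate block, an unpaired number here, gave 27 lower and 3 higher members and a median of -0.56, and only Gstz1 lost its call. Leaving out single libraries gave 22 to 33 lower and 3 to 4 higher. Chosen after seeing the data, leaving out the 6 members with over 10% of exon bases under other genes (Afmid, Aldh4a1, Bckdha, Gstz1, Mat2a and Sds) left 24 lower and 2 higher of 41. Higher related genes numbered 2 with DESeq2, with no filter and with the replicate block, 5 with library size alone, and 1 to 2 when a library was left out. Regulators numbered 4 lower and 2 higher with library size alone and the higher ones 0 to 1 when a library was left out. The cause of these moves was not tested. The Bhmt/Bhmt2 difference ranged from -0.315 to 0.104 without single libraries, positive without 0 h replicate 1 (0.0610) and 0 h replicate 3 (0.104). Log2 fold changes near 0 changed sign. Got2 was -0.0046 with DESeq2 and with RLE factors, -0.045 with protein-coding genes, -0.0125 with no filter and -0.00863 with at least 1 CPM, and Glud1 was -0.0351 with protein-coding genes and -0.00129 with no filter. With library size alone Aldh4a1 was 0.112, Gpt2 0.138 and Aass 0.12. Without single libraries Got2 ranged from -0.140 to 0.0970, Gpt2 from -0.213 to 0.0200, Glud1 from -0.115 to 0.0783 and Aass from -0.273 to 0.0691. Every member lay far above the level of 3 counts, and the effect of depth or of group size on the calls was not tested.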
